A study of Mus musculus with 16 samples.

Results

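The receptors that signal through gp130 and the Janus kinases (JAKs) bound to them were followed through mouse chimeras in which *Stat3* null and wild-type (WT) cells developed side by side. The group holds 10 genes chosen by name, 6 receptor subunits (*Il6st*, *Lifr*, *Osmr*, *Il6ra*, *Cntfr* and *Il11ra1*) and 4 kinases (*Jak1*, *Jak2*, *Jak3* and *Tyk2*), out of 29453 genes in the count matrix. The null cells carry tdTomato and descend from CD1 embryonic stem cells (ESCs) that lack *Stat3* and were injected into WT CD1 blastocysts, and the WT cells are those of the host. Chimeras of 3 ages (E7.5, E8.5 and E9.5) were dissociated as whole embryos and sorted into tdTomato-positive (null) and tdTomato-negative (WT) fractions for 3′ single-cell RNA sequencing. There were 2 libraries of each genotype at E7.5, 2 at E8.5 and 4 at E9.5, called A to D within a group, where a letter is only a name. Embryos were pooled at E7.5 and E8.5, and every library therefore mixes the cells of several animals there. The study grouped the E7.5 embryos by size, as large or small, so that libraries of a genotype can differ in embryo size there. As a limit of this model, injected ESCs are known to contribute poorly to the trophoblast and the visceral endoderm, which derive mainly from the host.

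Cytokines of the interleukin (IL)-6 family act through the shared subunit gp130, encoded by *Il6st*. Leukemia inhibitory factor (LIF) assembles the LIF receptor (*Lifr*) with gp130, IL-6 and IL-11 first bind the non-signaling subunits *Il6ra* and *Il11ra1*, ciliary neurotrophic factor (CNTF) binds *Cntfr* and then recruits *Lifr* and gp130, and oncostatin M (OSM) binds *Osmr* with gp130. JAK1, JAK2 and TYK2, held on the tails of the signaling subunits, phosphorylate STAT3 on tyrosine, while JAK3 pairs with the common gamma chain in blood cells and JAK2 with the receptors for erythropoietin and thrombopoietin.

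In all, 37841 cells were analysed, 360 to 4327 per library, with 20682659 to 138613245 UMIs (unique molecular identifiers, each counting 1 captured transcript) per library. The targeted gene, *Stat3*, was lower in the null libraries at each stage (log2 of null over WT −2.48 at E7.5, −1.89 at E8.5 and −1.54 at E9.5, edgeR quasi-likelihood test, all called, although the E8.5 call is lost when that stage is fitted alone, adjusted p = 0.196). The cell types are the authors' labels. In 37 of 39 type and stage combinations checked, the 4 listed markers were all above their median level over the other types. The other 2, Sclerotome and YS mesothelium at E9.5, had 3 of 4. Some types were checked with the list of a related tissue, such as Thyroid primordium with markers of gut and pharyngeal endoderm. Mesenchyme, Cranial mesoderm, Hindbrain floor plate and the cardiopharyngeal types were not among those checked. The share of cells with tdTomato was 89.8% in null library A and 72.3% in null library B at E8.5, against 96.1 to 98.3% in the other null libraries, and null-sorted cells without one were kept. The E9.5 WT libraries C and D shared 292 cell barcodes, whereas any other pair of libraries shared at most 8. Of these 292 barcodes, 10 had the same cell type label in both libraries. At E9.5 the study describes 2 embryos, so n counts libraries there and p-values measure the spread between libraries.

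The genes lie on 7 chromosomes, and coordinates are for GRCm38 with the GENCODE annotation. *Il6st* is at chr13:112464070-112510086 (+), *Lifr* at chr15:7090614-7197489 (+) and *Osmr* at chr15:6813577-6874969 (−). *Il6ra* is at chr3:89864059-89913196 (−), and *Cntfr* at chr4:41657498-41697089 (−) neighbors *Il11ra1* at chr4:41699989-41769474 (+). Among the kinases, *Jak1* is at chr4:101152367-101265282 (−), *Jak2* at chr19:29251828-29313080 (+), *Jak3* at chr8:71676296-71690575 (+) and *Tyk2* at chr9:21104068-21131243 (−). The sequence just upstream of the start is shown for *Jak1*, which exceeded 10 CPM in all 40 WT types at E9.5, and for *Jak3*, which reached 1 CPM in only 8 of them. Both are 160 bases from RefSeq's GRCm38.p6 promoter table, 5′ to 3′ on the strand of the gene, with CpG dinucleotides in capitals.
*Jak1*, chr4:101265283-101265442 (−): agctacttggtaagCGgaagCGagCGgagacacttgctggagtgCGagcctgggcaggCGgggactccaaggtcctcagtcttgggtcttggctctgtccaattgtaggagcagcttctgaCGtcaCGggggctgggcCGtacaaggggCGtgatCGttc
*Jak3*, chr8:71676136-71676295 (+): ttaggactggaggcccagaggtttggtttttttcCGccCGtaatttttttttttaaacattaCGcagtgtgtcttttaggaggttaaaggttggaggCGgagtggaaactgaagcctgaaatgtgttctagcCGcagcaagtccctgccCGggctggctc
The *Jak1* stretch holds 10 CpG dinucleotides and is 61.25% G or C, and the *Jak3* stretch holds 6 and is 48.75% G or C. The STAT motif TTCNNNGAA, which reads the same on both strands, was in 0 of the 17 RefSeq promoter windows of the 10 genes, against 8.30% of 32851 windows of the same length (300 bases). A window without these letters says nothing about binding elsewhere.

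WT cells were used to describe where each gene is expressed. The level is CPM, the UMIs of the gene per 1000000 UMIs, computed per library from the summed cells of a type and averaged over libraries with more than 15 cells of that type, in 11 types at E7.5, 36 at E8.5 and 40 at E9.5. Since the labels were assigned from expression, differences between types are given without a test. UMIs of the 3′ ends are not corrected for length or capture, and levels are compared only within a gene.

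*Il6st*, the common signal transducer, was expressed nearly everywhere and was highest in mesothelium and mesenchyme. At E8.5 it stood at 74.9 and 73.4 CPM in YS mesothelium (libraries A and B, mean 74.1 ± 1.02, SD, n = 2), and at E9.5 at 48.6, 51.6 and 54.2 CPM (A, B and D, 51.5 ± 2.83, n = 3). No other type overlapped these libraries at either stage. The next types were Mesenchyme at E8.5 (54.7 ± 6.61 CPM, n = 2) and Cranial mesoderm at E9.5 (37.7 ± 5.65 CPM, n = 4), the latter not separable from Allantois, Amniotic ectoderm and Mesenchyme. At E7.5 Mesenchyme led, with 54.8 and 43.2 CPM in its libraries. The lowest levels were in blood, with 7.35 CPM in Blood progenitors at E7.5, 3.83 CPM in Erythroid cells at E8.5 and 5.80 CPM in Erythroid cells at E9.5. A mean of at least 10 CPM was reached in 10 of 11, 33 of 36 and 39 of 40 types at the consecutive stages.

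*Lifr*, the partner of gp130 for LIF and CNTF, followed *Il6st* into the mesothelium but was more uneven across types. In YS mesothelium it was at 57.3 and 50.2 CPM at E8.5 and at 40.6, 53.6 and 60.2 CPM (A, B and D) at E9.5. Without E8.5 library A, Amniotic ectoderm stood at 53.2 CPM against 50.2 CPM in YS mesothelium. Venous endothelium came next at E9.5 with 25.8, 42.1 and 35.4 CPM (B, C and D), a range that overlaps that of YS mesothelium. Among the 11 types of E7.5, Mesenchyme was the highest, with 44.4 and 42.7 CPM. Haematoendothelial progenitors were not among these 11. A *Lifr* UMI was seen in 64.5% of their 93 WT cells, against 57.3% of 164 WT cells in Mesenchyme. In the E7.5 null libraries their mean was 65.5 CPM, against 29.7 CPM in Mesenchyme. Blood cells after E7.5 had little. Blood progenitors still had 26.9 ± 1.21 CPM at E7.5, whereas Erythroid cells had 1.36 CPM at E8.5 and Megakaryocyte progenitors 1 UMI in 50 cells at E9.5. Across the 87 WT type and stage combinations the log2 levels of *Il6st* and *Lifr* had a Pearson correlation of 0.65, the highest of any pair of the 10 genes. The combinations share libraries, and this is a description.

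*Osmr* was close to undetected. All WT libraries together held 6, 14 and 32 *Osmr* UMIs at the 3 stages in turn, and no UMI was seen in 8 of 11, 31 of 36 and 30 of 40 types. Its highest mean, 1.71 CPM in Limb ectoderm at E8.5, rested on 2 UMIs.

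Of the subunits that bind a ligand without signaling, *Il6ra* was the most restricted. At E9.5 EMP cells, a population in which the hematopoietic genes *Kit*, *Myb*, *Ptprc* and *Csf1r* were all enriched, had 36.1, 48.1, 43.6 and 17.2 CPM in libraries A to D. The next type, Megakaryocyte progenitors, had 2.21 and 7.84 CPM in its 2 libraries (B and D), so that no library overlapped. EMP cells were 1.30% of the WT cells at E9.5 and held 240 of the 335 *Il6ra* UMIs, or 71.6% (95% exact binomial interval 66.5 to 76.4%, counting error only). An *Il6ra* UMI was seen in 54.0% of EMP cells (median 43446.5 UMIs per cell) and in 0 of the 380 Erythroid cells (median 22601 UMIs), taken as the measure of free RNA, which allows a share of up to 0.789%. With each cell thinned to 10000 UMIs the shares were 24.0% and 0%. At E8.5 the 48 EMP cells also led, but libraries A and B differed widely, at 24.9 and 2.55 CPM, and at E7.5 only 15 UMIs were seen in all WT cells.

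*Cntfr*, the CNTF receptor of neural tissue, had its highest means in neural tube types but was widespread, with at least 10 CPM in 30 of 40 types at E9.5. Midbrain/Hindbrain boundary (94.4 ± 19.0 CPM, n = 3), Dorsal spinal cord progenitors (88.3 ± 5.81, n = 4), Dorsal hindbrain progenitors (85.9 ± 9.31, n = 4), Ventral hindbrain progenitors (82.7 ± 6.31, n = 4) and Hindbrain neural progenitors (75.9, n = 4) were the 5 highest types at E9.5. Their libraries overlap, and the order within these 5 is not resolved. Allantois, a non-neural type, came next at 57.95 ± 25.6 CPM (31.8, 83.0 and 59.1 in A, B and D) and overlapped them. Venous endothelium was the lowest at 3.12 CPM, on 9 UMIs. At E8.5 the 4 leading types were hindbrain, boundary and spinal cord populations too, between 48.3 and 59.6 CPM. At E7.5 Caudal epiblast (39.0 and 20.8 CPM) and Ectoderm (40.9 and 16.3 CPM) led, with library A above library B in both.

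*Il11ra1*, the IL-11 receptor, was highest in mesothelium, endothelium and mesenchyme. YS mesothelium had 11.6, 11.1 and 11.4 CPM at E9.5 (A, B and D), Venous endothelium 10.3 ± 1.28 (n = 3) and Frontonasal mesenchyme 10.2 ± 1.63 (n = 4), and these ranges overlap. Mesenchyme was highest at E7.5, with 5.69 ± 0.924 CPM (n = 2). *Il11ra2*, a close copy of the gene, was at 0 UMIs in every WT type at each stage, and reads from near-identical copies may not be told apart.

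**Figure D1:**
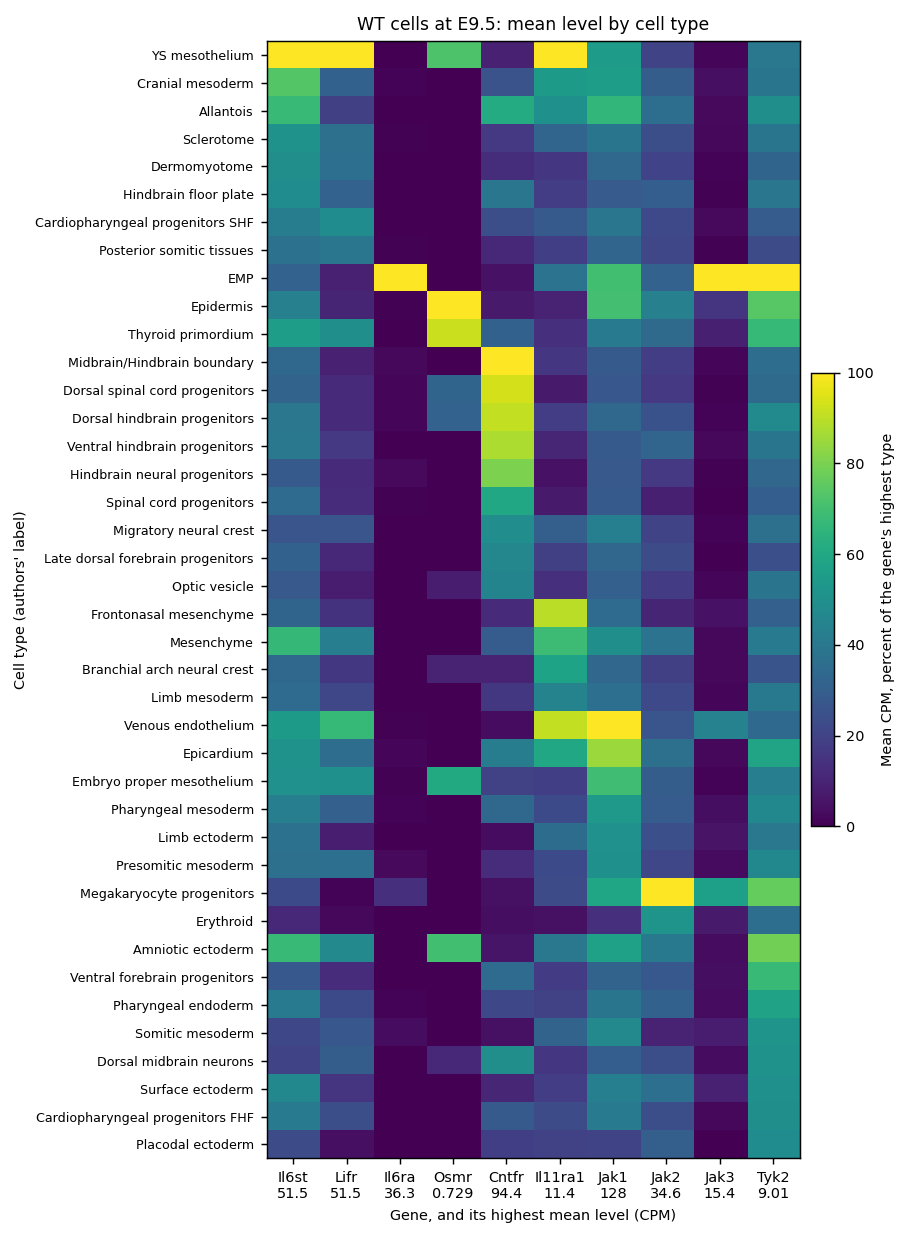
Mean level of each of the 10 genes (columns) in 40 WT cell types at E9.5 (rows), as percent of the highest type of that gene, whose level in CPM is printed under the symbol. *Il6st*, *Lifr* and *Il11ra1* peak in YS mesothelium, *Il6ra*, *Jak3* and *Tyk2* in EMP cells, *Cntfr* in hindbrain and spinal cord types, *Jak1* in Venous endothelium and *Jak2* in Megakaryocyte progenitors. The *Osmr* column is scaled to 0.729 CPM.

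Of the kinases, *Jak1*, a partner of gp130 in signaling, exceeded 10 CPM in every type at each stage. Venous endothelium was highest at E8.5 (139 and 109 CPM), where its libraries overlapped those of Embryo proper endothelium (99.0 ± 16.4 CPM, n = 2), and at E9.5 (161, 111 and 111 CPM in B, C and D), where it overlapped Epicardium (108 ± 8.85 CPM, n = 4). At both of these stages the first place rested on 1 library. Without E8.5 library A, Embryo proper endothelium stood at 111 CPM against 109 CPM, and without E9.5 library B Epicardium stood at 112 CPM against 111 CPM. At E7.5 Visceral endoderm was highest at 83.4 ± 2.64 CPM. The lowest types had 21.4 CPM (Caudal epiblast, E7.5), 13.2 CPM (Foregut, E8.5) and 17.6 CPM (Erythroid, E9.5). The highest type exceeded the median type by 1.85, 3.12 and 2.55 times at the 3 stages in turn.

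*Jak2* had its highest means in the blood, where it serves the receptors for erythropoietin and thrombopoietin, but a blood type stood apart at E9.5 only. At E7.5 Blood progenitors (8.70 and 8.99 CPM) lay within the range of Visceral endoderm (11.6 and 5.36 CPM). Megakaryocyte progenitors at E9.5 had 31.0 and 38.2 CPM (B and D), above each library of every other type. Erythroid cells followed with 19.9, 21.8, 13.0 and 17.2 CPM. At E8.5 EMP cells (14.9 ± 0.539 CPM) and Erythroid cells (13.0 ± 1.33) had the highest means, within the range of Hindbrain floor plate (18.4 and 7.06 CPM). With cells thinned to 10000 UMIs, Hindbrain floor plate led, at 16.1 CPM against 14.6 CPM in EMP cells. Erythroid cells, 16.5% of the WT cells at E8.5, held 461 of 1415 *Jak2* UMIs (32.6%). A share of UMIs also reflects the depth per cell. By level, their 13.0 CPM stood against a mean of 8.94 CPM over whole WT libraries at E8.5.

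*Jak3*, the kinase of lymphoid and myeloid cytokine receptors, was restricted to few types. Its E9.5 level in EMP cells was 15.3, 11.8, 10.4 and 24.0 CPM. Megakaryocyte progenitors (6.63 and 10.8 CPM) and Venous endothelium (6.80 ± 1.32 CPM, n = 3) followed, and only 8 of 40 types reached 1 CPM. EMP cells held 112 of 354 *Jak3* UMIs in WT cells at that stage (31.6%). Outside the blood, ExE ectoderm, the trophoblast part of the E7.5 embryo, held 38 of 77 *Jak3* UMIs, or 49.4%, from 11.2% of the cells. Its mean was 3.53 ± 0.0365 CPM (n = 2), against a *Jak3* mean of 0.976 CPM over whole WT libraries at E7.5. Branchial arch neural crest held 29 of 143 at E8.5, at 5.15 and 6.76 CPM.

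*Tyk2* was even and low, between 1.13 and 10.2 CPM in all types and stages. EMP cells had the highest mean at E9.5, with 9.12, 8.67, 8.88 and 9.38 CPM in libraries A to D, not separable from Amniotic ectoderm and Megakaryocyte progenitors.

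**Figure D2:**
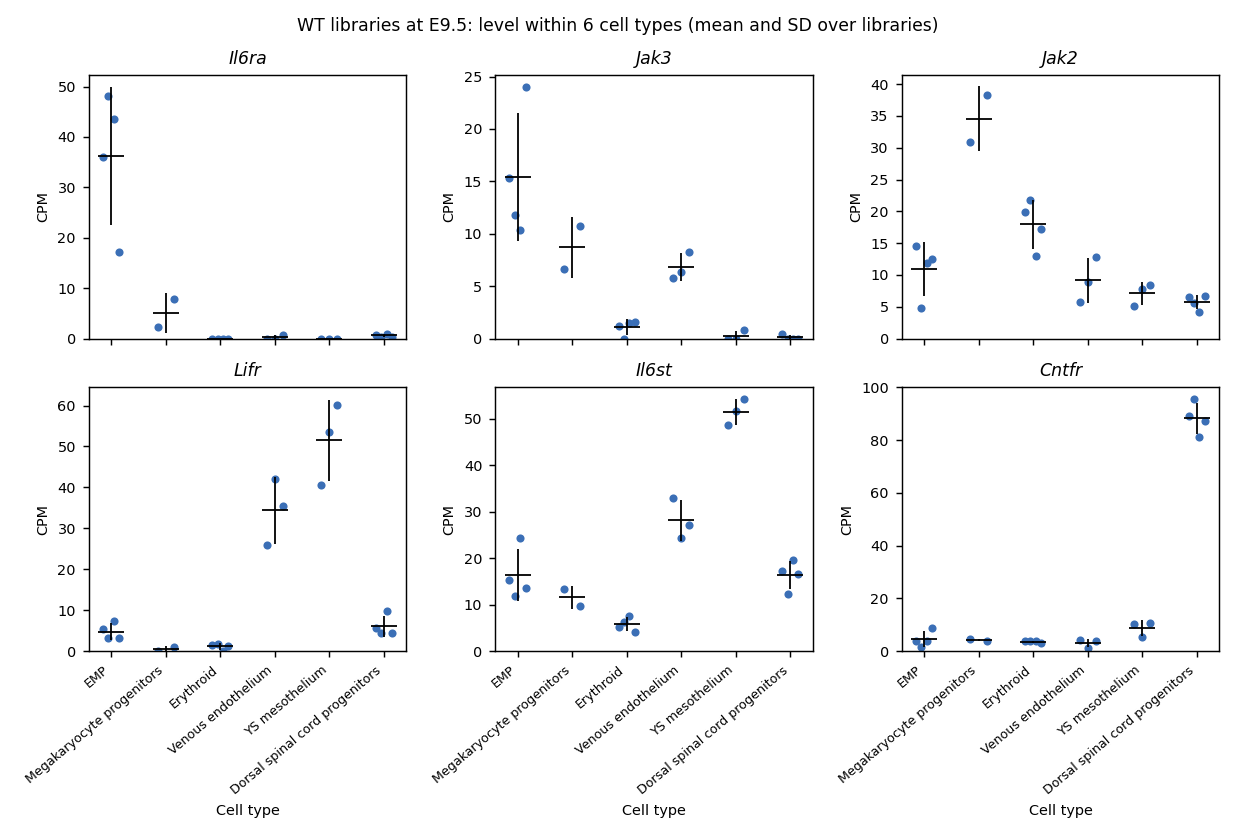
Level in CPM of 6 of the genes (panels) in 6 cell types of the E9.5 WT libraries. Each point is 1 library, and the horizontal and vertical bars are the mean and SD. *Il6ra* and *Jak3* are high in EMP cells, *Jak2* in Megakaryocyte progenitors, *Lifr* and *Il6st* in YS mesothelium, and *Cntfr* in Dorsal spinal cord progenitors.

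Whether a type had RNA of all subunits of a receptor was read at a mean of 10 CPM for each, an arbitrary line, also across genes. Complete here refers to these means, and neither subunits in the same cell nor protein were examined. The LIF receptor (*Lifr* and *Il6st*) was complete in 5 of 11, 21 of 36 and 21 of 40 WT types at the consecutive stages. The CNTF receptor, which needs *Cntfr* in addition, was complete in 0, 8 and 17 types. The IL-6 receptor was complete in EMP cells alone at E8.5 and E9.5 and in no type at E7.5. The E8.5 entry rests on library A, since *Il6ra* was at 24.9 CPM there and at 2.55 CPM in library B. The IL-11 receptor was complete in 3 types at E9.5 (Frontonasal mesenchyme, Venous endothelium and YS mesothelium) and in 0 before, and the OSM receptor built with *Osmr* in 0 at each stage.

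The ligands were scarce. *Lif* reached its highest level, 1.49 CPM on 16 UMIs, in ExE ectoderm at E7.5. Among the other 9 genes listed as ligands or ligand subunits, only *Ebi3* and *Ctf1* had a type above 10 CPM at E8.5 and E9.5. *Ebi3*, which encodes a subunit and not a whole ligand, was at 16.9 CPM at E8.5 and 16.5 CPM at E9.5, both in EMP cells. *Il27* reached at most 0.519 CPM, on 1 UMI. *Ctf1*, encoding cardiotrophin 1, was at 15.3 CPM in Thyroid primordium at E9.5. *Clcf1*, which encodes a ligand of the CNTF receptor, reached 5.35 CPM in YS mesothelium at E9.5.

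Genes with the most similar pattern over the 87 combinations were ranked by Pearson correlation of log2(CPM + 1) among 11763 genes. For *Il6ra* these were *Cd180*, *Bcl2a1d* and *Arhgap15* (0.92, 0.91 and 0.91), and for *Jak3* *Fxyd5*, *Nrros* and *Laptm5* (0.81, 0.79 and 0.79). *Cntfr* was followed by *Sfrp2*, *Metrn* and *Map1b* (0.82, 0.79 and 0.79), and *Il6st* by *Ssr3*, *Sec31a* and *Fam114a1* (0.80, 0.79 and 0.79). The nearest gene was *Cdc42* for *Jak1* (0.77), *Frmd6* for *Lifr* (0.72), *Ppic* for *Il11ra1* (0.71), *Abhd16a* for *Jak2* (0.69) and *Fam173a* for *Tyk2* (0.61). The combinations share libraries and vary in depth, so no p-value is attached.

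The next comparison asked whether these receptors and kinases differed between null and WT cells within a cell type. All null cells descend from injected tdTomato ESCs and all WT cells from the host. Loss of *Stat3* therefore cannot be told apart from the origin of the cells or the reporter. Counts of a type were summed per library and compared between null and WT with edgeR's quasi-likelihood test, and a gene was called at a Benjamini-Hochberg adjusted p under 0.05 with a log2 fold change beyond 1. None of the 10 genes was called in any type. At E7.5, 35 gene and type pairs in 7 types passed the filter on low counts, at E8.5 88 pairs in 20 types and at E9.5 188 pairs in 37 types, and 0 were called at each stage. Over all genes 0.186%, 0.0609% and 0.12% of tests were called and 0.247%, 0.0929% and 0.271% passed the adjusted p alone, which 0 of the pairs did. Against so low a background 0 calls is no result about these genes. DESeq2 and limma-voom also called 0 pairs at each stage. An unadjusted p under 0.05 was found in 5, 1 and 10 pairs (14.3%, 1.14% and 5.32%), against 4.06%, 4.32% and 6.26% of all tests. The 95% interval of the difference lay within −1 and 1 on the log2 scale in 18, 56 and 148 pairs, and the remaining pairs do not exclude a change of that size.

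*Lifr* in Cardiopharyngeal progenitors SHF at E9.5 came closest to a call. The null libraries had 3.92, 10.5 and 8.69 CPM (A, B and C, 19 UMIs) and the WT libraries 23.3, 25.96 and 25.5 CPM (B, C and D, 52 UMIs), while the fourth library of each genotype had too few cells. The groups did not overlap, and the fitted difference was −1.70 (SE 0.39, 95% interval −2.50 to −0.89, edgeR adjusted p = 0.0735). With no filter on low counts the same pair was called (−1.68, adjusted p = 0.0163), and over all alternatives the adjusted p ranged from 0.0163 to 0.451.

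The other pairs with the smallest adjusted p at E9.5 were smaller in size. *Il6st* in Dermomyotome was at 16.6 to 18.1 CPM in the 4 null libraries and at 22.7 to 28.2 CPM in the 4 WT libraries (−0.54, SE 0.17, edgeR adjusted p = 0.353). In Limb mesoderm *Il6st* was at 11.3 to 16.7 CPM against 17.3 to 18.6 CPM (−0.33, adjusted p = 0.468, edgeR). In Sclerotome, *Lifr* was at 12.5 to 17.5 CPM against 18.1 to 19.9 CPM (−0.24, −0.30 to −0.16 over the alternatives, edgeR adjusted p = 0.419). These 3 pairs, picked for their small p, had no overlap between the genotypes. Of all 188 pairs at E9.5, 25 had none (13.3%), against 9.51% of the tests of all genes. *Il11ra1* in Sclerotome went the other way, at 4.27 to 6.16 CPM in null against 2.85 to 5.33 CPM in WT, with overlap (0.55, edgeR adjusted p = 0.345).

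At E8.5 the 5 smallest adjusted p were all in Erythroid cells. The adjustment was made within each type, so the order across types also depends on the other genes tested there. It does not show where these genes differ most. *Il6st* was at 2.32 and 1.39 CPM in null and 3.38 and 4.28 CPM in WT libraries (−0.91, edgeR adjusted p = 0.528), and the differences of *Lifr*, *Cntfr*, *Il11ra1* and *Jak3* there were −0.74, −0.84, 0.63 and 0.50 with adjusted p of 0.771 to 0.914. These values moved with the setting and with single libraries, from −1.60 to −0.60 for *Il6st*, −1.34 to −0.55 for *Lifr* and −1.74 to −0.28 for *Cntfr* over the alternatives. That of *Il11ra1* took both signs (−0.12 to 1.52), while *Jak3* stayed between 0.38 and 0.63. At E7.5 the smallest were for *Lifr* in Blood progenitors (15.6 and 22.0 CPM against 26.1 and 27.8 CPM, −0.61, edgeR adjusted p = 0.833) and in Mesenchyme (33.8 and 25.5 CPM against 44.4 and 42.7 CPM, −0.47, adjusted p = 0.935, edgeR). *Jak2*, *Il6st* and *Jak1* in Blood progenitors followed at −0.56, −0.57 and −0.03. Over the alternatives *Lifr* ranged from −0.75 to −0.26 in Blood progenitors and from −0.71 to −0.34 in Mesenchyme. In Blood progenitors *Jak2* ranged from −0.72 to −0.08, *Il6st* from −0.70 to −0.15 and *Jak1*, with both signs, from −0.17 to 0.16. None of these differences passed the adjustment over all genes, although *Il6st* in Erythroid cells at E8.5 and *Lifr* in both types at E7.5 had an unadjusted p under 0.05.

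*Il6st* was lower in null than in WT cells in 6 of 7, 14 of 19 and 27 of 37 types from the earliest to the latest stage, with median differences of −0.28, −0.08 and −0.15 (log2), against 0.00 over all genes at each stage. The types share libraries, so these counts are not independent. At E9.5 the median stayed between −0.19 and −0.11 under every alternative, and at E8.5 it ranged from −0.53 to 0.01. *Lifr* was lower in 4 of 6, 12 of 16 and 20 of 30 types, with medians of −0.18, −0.12 and −0.10. Its E7.5 median ranged from −0.26 to 0.10 over the alternatives, with 33.3 to 83.3% of types lower in the null, and those of E8.5 and E9.5 stayed below 0. *Cntfr* was lower in 2 of 5, 10 of 15 and 19 of 33, and its median took both signs over the alternatives at each stage (−0.20 to 0.68 at E7.5). *Jak1* was lower in 18 of 37 types at E9.5 with a median of 0.01 (−0.08 to 0.05 over the alternatives), and in 36 of those 37 its interval lay within −1 and 1.

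The genes of the blood were tested in few types. *Il6ra* could be tested only in EMP cells at E9.5, with 35.2 and 21.8 CPM in the 2 null libraries with enough cells (A and D) and 17.2 to 48.1 CPM in the 4 WT libraries (−0.26, 95% interval −1.18 to 0.65, edgeR adjusted p = 0.919). *Jak3* in the same cells was at 7.18 and 9.22 CPM in null and 10.4 to 24.0 CPM in WT libraries, without overlap (−0.98, SE 0.38, edgeR adjusted p = 0.559). *Jak2* was lower in 14 of 29 types and *Tyk2* in 9 of 11 at E9.5, with medians of 0.01 and −0.23. Over the alternatives the *Tyk2* median ranged from −0.23 to 0.01 and the share of types with the null lower from 48.6 to 81.8%, so that this lean depends on the setting. *Osmr* passed the filter in no type.

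**Figure D3:**
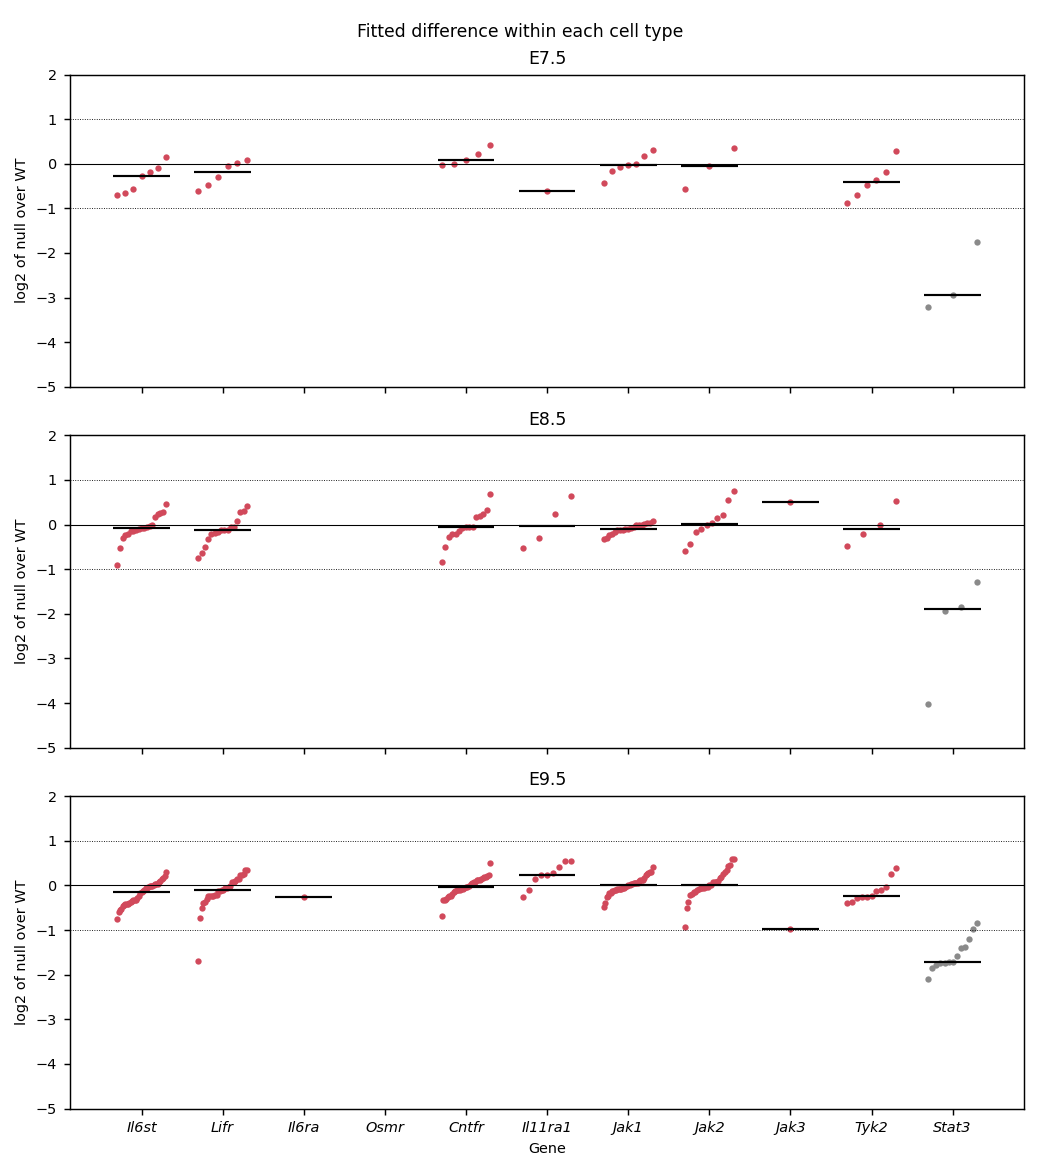
Fitted log2 difference of null over WT for each gene (x axis) in each cell type tested, 1 panel per stage, with *Stat3* in grey as the check of the targeted gene. Each point is 1 type, thick bars are medians and dotted lines mark −1 and 1. All points of the 10 genes lie between −1 and 1 except *Lifr* in Cardiopharyngeal progenitors SHF at E9.5 (−1.70), and all *Stat3* points are below 0.

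Whole libraries, with all types summed, gave the same count. In such sums, fewer cells of a type and less RNA per cell cannot be told apart. With all 16 libraries in 1 fit, 0 of the 10 genes were called at any stage or over the mean of the stages, where 2.62%, 0.103%, 0.745% and 0.964% of all genes were called. DESeq2 and limma-voom also called 0, as did the fit without the null-sorted cells that had no tdTomato UMI, where the median of the 10 genes at E8.5 was −0.00 instead of −0.05. An unadjusted p under 0.05 was found for 1, 0, 0 and 1 of the 10 genes, against 18.2%, 5.26%, 9.07% and 18.7% of all genes. *Il6st* at E9.5 was at 18.9, 19.6, 20.7 and 21.2 CPM in WT libraries A to D and at 17.7, 18.3, 18.5 and 19.8 CPM in null libraries A to D (−0.12, 95% interval −0.27 to 0.04). *Jak1* at E9.5 was at 50.4 ± 1.44 CPM in WT and 50.4 ± 3.29 CPM in null libraries (n = 4 each), with an interval of the difference from −0.14 to 0.13.

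*Tyk2* at E7.5 had the smallest adjusted p over whole libraries. It was at 5.82 and 5.01 CPM in WT and at 3.86 and 3.48 CPM in null libraries, without overlap (−0.50, SE 0.15, 95% interval −0.81 to −0.19, edgeR adjusted p = 0.0623). The libraries of *Jak1*, *Jak3* and *Osmr* did not overlap at E7.5 either, *Osmr* on 6 UMIs in WT and 4 in null libraries. How many of all genes were apart over whole libraries was not counted, so this is no result about these genes. Within types at that stage 17 of the 35 pairs had no overlap (48.6%), against 31.2% of the tests of all genes. The order was reversed at E8.5, where 17 of 88 pairs had none (19.3%), against 32.4% of the tests of all genes. *Tyk2* was lower in 5 of 6 types at E7.5, among them Lateral plate mesoderm (3.67 and 3.31 CPM against 6.79 and 6.60 CPM, −0.88, adjusted p close to 1 by edgeR). Markers of host tissues moved with genotype in the same libraries. The sum over 4 markers of ExE ectoderm was 531 and 334 CPM in WT and 111 and 73.0 CPM in null libraries, and that over 4 markers of visceral and ExE endoderm 366 and 457 CPM against 4.01 and 1.69 CPM. Their part in the *Tyk2* value was not tested.

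Whether the difference between genotypes itself changed with stage was tested as an interaction. From E7.5 to E8.5 and from E8.5 to E9.5, 0 of the 10 genes passed an adjusted p of 0.05 (edgeR), where 1.41% and 0.0321% of all genes did. DESeq2 also called 0. Unadjusted, 1 and 0 genes were under 0.05, against 11.2% and 2.51% of all genes, and the 1 was *Tyk2* in the first interval (0.51, 95% interval 0.07 to 0.95, adjusted p = 0.341).

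**Figure D4:**
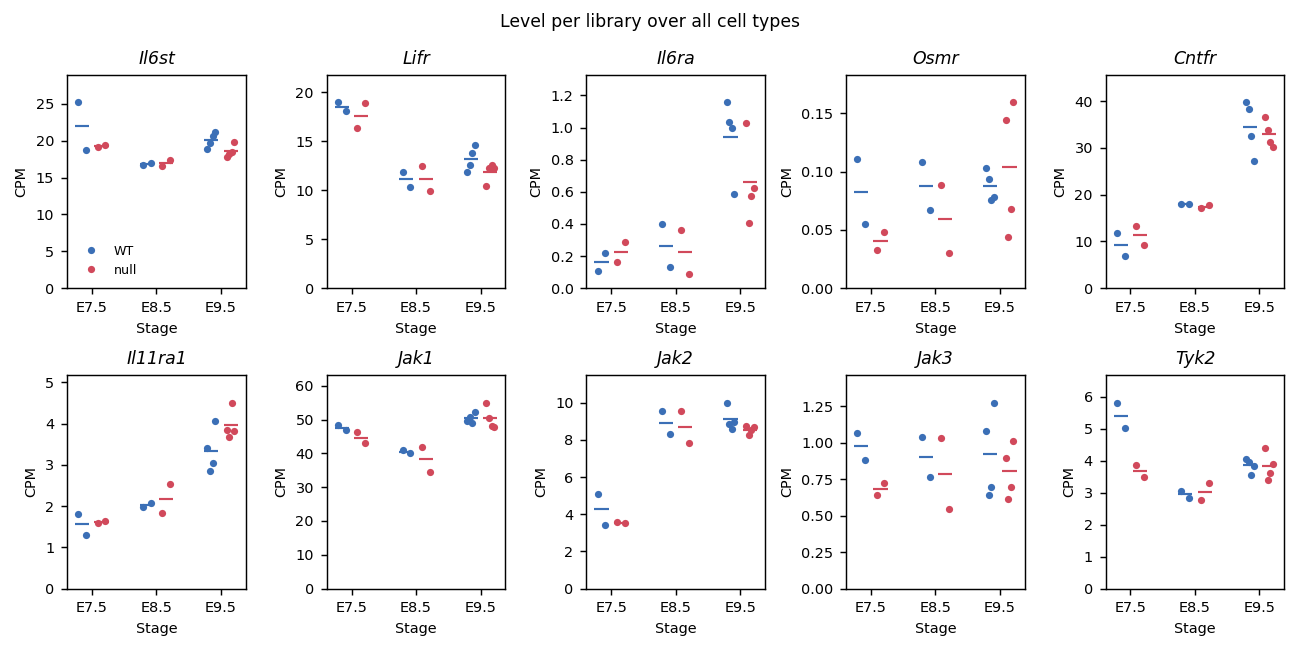
Level in CPM of each of the 10 genes over all cells of a library, by stage (x axis), with WT in blue and null in red. Points are libraries and bars are group means. *Cntfr* and *Il11ra1* are higher at later stages in both genotypes. The *Tyk2* libraries of the genotypes are apart at E7.5 only, where those of *Jak1*, *Jak3* and *Osmr* are apart too. The share of all genes apart there was not counted.

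A list of other genes of the pathway was examined in the same test within types. Of 7 STAT genes with 112 tests, 12 tests were called, all lower in null cells, 10 of them *Stat3* itself, where 0.186%, 0.0609% and 0.12% of the tests of all genes were called at the stages in turn. The other 2 were *Stat5a* (−4.17, edgeR adjusted p = 8.1e-05) and *Stat5b* (−1.58, adjusted p = 0.00136), neighbors of *Stat3* in the genome, in Blood progenitors at E7.5. *Stat5a* was called in 1 of 3 tests and *Stat5b* in 1 of 34, and a part of their position was not tested. Of 15 other receptors that use JAKs, with 274 tests, *Csf2rb*, the common beta chain of the IL-3 receptor family, was called lower in Erythroid cells at E8.5 (−4.70, adjusted p = 0.0323) and in EMP cells at E9.5 (−2.95, adjusted p = 0.0326, edgeR). The 9 feedback and adaptor genes such as *Socs3* (379 tests) had 0 calls. So did the 2 of 10 genes listed as ligands or ligand subunits that could be tested (24 tests). At that background 0 calls is no result about either set.

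Changes between stages were then tested within cell types of WT cells, where composition does not enter between types. From E7.5 to E8.5 only 2 types had enough cells at both stages, and 1 of 12 tests was called, against 8.55% of all tests (5.24% higher and 3.3% lower). *Cntfr* rose in Mesenchyme from 2.52 and 1.69 CPM to 10.1 and 7.85 CPM (libraries A and B, 12 and 54 UMIs), a log2 change of 2.06 (SE 0.44, edgeR adjusted p = 0.0041). DESeq2 did not call it (adjusted p = 0.0696), and its 1 call was of another pair, which was lower at E8.5. *Lifr* in the same cells stood just short of the fold threshold, at 44.4 and 42.7 CPM and then 18.9 and 23.9 CPM (−0.997, edgeR adjusted p = 0.00165). From E8.5 to E9.5, 11 of 157 tests in 31 types were called, 8 higher and 3 lower, where 3.19% of all tests were called, 2.17% higher and 1.02% lower. The excess of higher calls depended on the tool, with 4 of 7 higher in DESeq2 and 3 of 6 in limma-voom. The libraries of the stages did not overlap in any of the 12 pairs, which the call nearly fixes (98.7% of the called pairs of all genes). Leaving out either of the 2 E8.5 WT libraries left 4 calls, 3 of them higher without A and 2 without B.

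*Cntfr*, the neural receptor, accounted for 4 of the 8 increases at E9.5, each outside the types where it was highest. In Mesenchyme it rose further, to 21.3, 33.8, 31.9 and 23.2 CPM in libraries A to D (1.46, SE 0.25, edgeR adjusted p = 0.000543), and this call held under every alternative and without any single library. In Cranial mesoderm it went from 9.22 and 8.64 CPM to between 16.6 and 30.3 CPM (1.21, adjusted p = 0.00797, edgeR), a call lost with DESeq2, with limma-voom and without E8.5 library A or B (adjusted p 0.0613 to 0.144). In Hindbrain floor plate it went from 12.3 and 14.1 CPM to between 28.1 and 45.7 CPM (1.33, edgeR adjusted p = 0.0146), lost with limma-voom and without E8.5 library A or B (adjusted p 0.146 to 0.180). It was higher at E9.5 in 23 of the 27 types tested, with a median of 0.51, against 51.4% of the tests of all genes and a median of 0.01. The types share libraries.

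*Cntfr* also rose in Erythroid cells, at a far lower level, from 0.739 and 1.77 CPM to 3.79, 3.63, 3.82 and 2.95 CPM (1.70, SE 0.44, edgeR adjusted p = 0.0124). The call was lost without E8.5 library A (adjusted p = 0.103) and without E9.5 library A (adjusted p = 0.0710). Over whole WT libraries *Cntfr* went from 18.0 to 34.4 CPM between these stages. The sum over *Sox2*, *Pax6*, *Sox1* and *Pax3*, markers of spinal cord and hindbrain, was 5.86 and 14.98 CPM in these Erythroid cells at E8.5 and 11.8 to 22.1 CPM at E9.5. Its part in the Erythroid value was not tested.

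*Lifr* changed in both directions. It fell in Hindbrain floor plate from 34.4 and 32.5 CPM to between 12.8 and 18.2 CPM (−1.20, SE 0.25, edgeR adjusted p = 0.00441), where *Cntfr* rose. This call was lost without E8.5 library A (adjusted p = 0.0779) or B (adjusted p = 0.0696). It also fell in Cardiopharyngeal progenitors FHF from 39.2 and 17.1 CPM to between 8.52 and 14.8 CPM (−1.34, adjusted p = 0.00421, edgeR). That change rested on E8.5 library A, without which it was −0.55 (adjusted p = 0.586). In Migratory neural crest *Lifr* rose from 5.73 and 4.19 CPM to between 9.97 and 17.4 CPM (1.32, SE 0.30, edgeR adjusted p = 0.00521), a call lost without E8.5 library B (adjusted p = 0.130).

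*Jak3* in Branchial arch neural crest had the largest log2 change of these 12 pairs. It went from 5.15 and 6.76 CPM at E8.5 (29 UMIs in 172 cells) to 0, 0.778, 0.278 and 0.384 CPM at E9.5 (5 UMIs in 368 cells), a log2 change of −4.13 (SE 0.65, edgeR adjusted p = 5.8e-05) that held under every alternative and without any single library. The sum over 4 neural crest markers (*Sox10*, *Foxd3*, *Tfap2a* and *Ets1*) in Branchial arch neural crest also went down between the stages, from 257 and 279 CPM to between 57.5 and 74.0 CPM. The sum over the 4 EMP markers in Branchial arch neural crest was 3.44 and 1.23 CPM at E8.5 and 5.06 to 8.62 CPM at E9.5. The part of either list in the *Jak3* value was not tested. In the same type *Il11ra1* rose from 2.29 and 1.84 CPM to between 4.67 and 8.34 CPM (1.43, edgeR adjusted p = 0.0164), a call lost with DESeq2, with limma-voom and without E8.5 library A or B (adjusted p 0.0583 to 0.136).

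The 2 other kinase calls rested on few counts. *Jak1* in Thyroid primordium went from 9.15 and 17.7 CPM (9 UMIs in 40 cells) to 72.3, 33.7 and 50.7 CPM in A, B and D (1.85, SE 0.47, edgeR adjusted p = 0.0299). *Jak2* in Optic vesicle went from 2.01 and 2.70 CPM (16 UMIs) to between 4.90 and 7.36 CPM (1.16, SE 0.36, edgeR adjusted p = 0.0247). Both calls were lost with DESeq2, with limma-voom and without either E8.5 library, that of *Jak1* also without E9.5 library A or D and that of *Jak2* also without E9.5 library B (adjusted p 0.0603 to 0.392 over these). *Il6st* was not called, but it had an adjusted p under 0.05 with a smaller change in Mesenchyme (−0.78, adjusted p = 0.00213) and YS mesothelium (−0.61, adjusted p = 0.0192, edgeR) from E8.5 to E9.5.

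**Figure D5:**
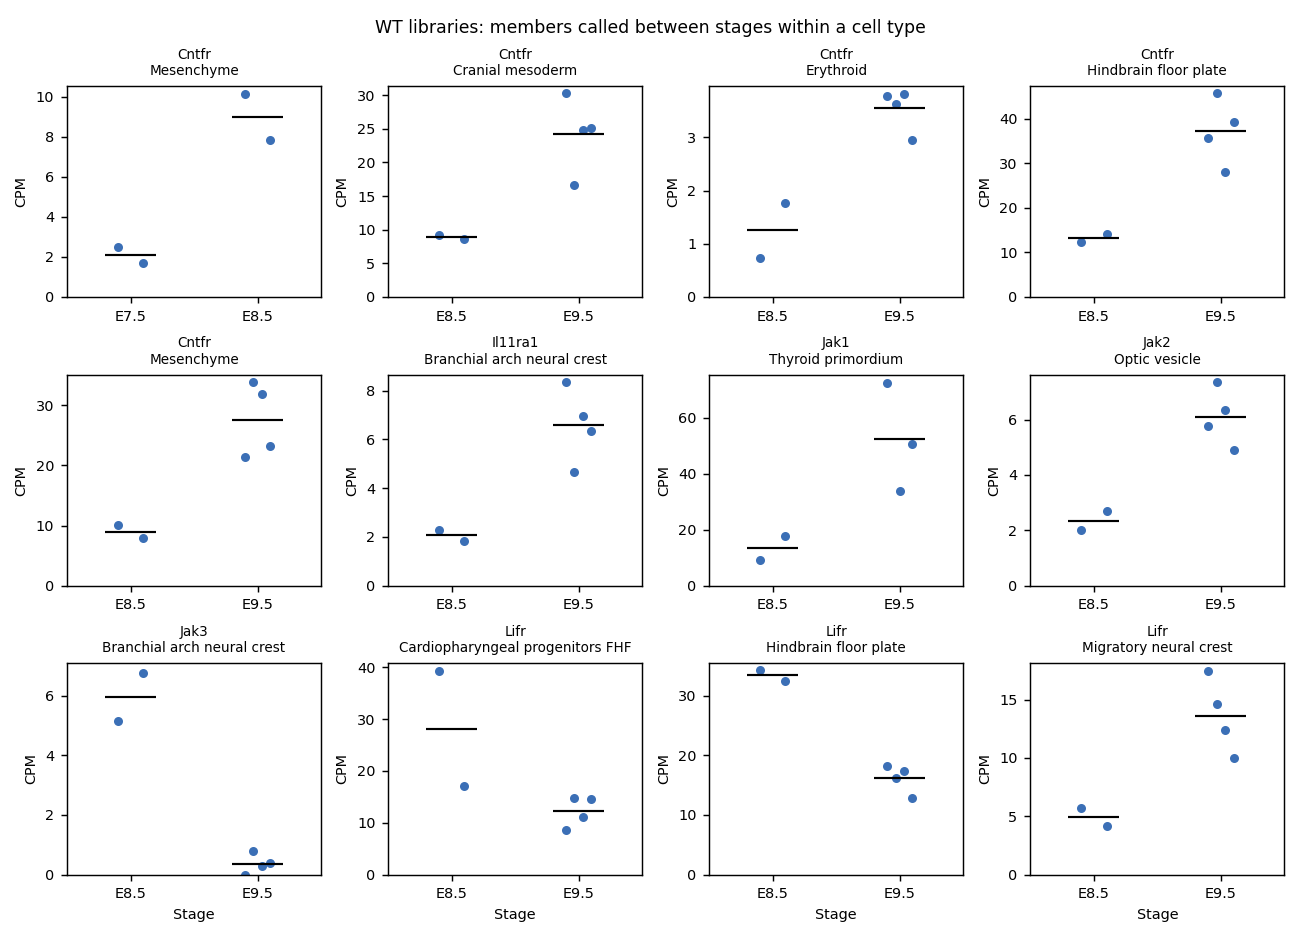
Level in CPM of the 12 gene and type pairs called between stages in WT cells. Each point is 1 library and bars are stage means. In every panel the libraries of the stages are apart, as in 98.7% of the called pairs of all genes. The largest log2 change is that of *Jak3* in Branchial arch neural crest, which goes from 5.15 and 6.76 CPM to at most 0.778 CPM.

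The null libraries, which took no part in these tests, showed the same pairs from another set of cells. These cells are not from other animals, since by the study's methods each embryo pool gave both a null and a WT sample. Of the 12 pairs, 11 had null libraries with more than 15 cells at both stages, and in all 11 the mean moved in the direction seen in WT cells. Among the pairs of all genes called in WT cells 97.2% did so, so that this is not particular to these genes. In 8 of these 11 the null libraries of the stages did not overlap, against 84.3% over all genes, and 2 of the 8 (*Il11ra1* and *Jak3* in Branchial arch neural crest) have 1 null library at E8.5. *Cntfr* in Mesenchyme was at 1.54 and 1.47 CPM at E7.5, at 12.1 and 6.31 CPM at E8.5 and between 27.2 and 35.9 CPM at E9.5 in null libraries. *Jak3* in Branchial arch neural crest was at 3.56 CPM in the only E8.5 null library with enough cells (13 UMIs in 108 cells) and between 0.191 and 0.826 CPM at E9.5. *Lifr* in Hindbrain floor plate was at 33.2 and 24.98 CPM against 11.96 to 18.3 CPM. The 3 pairs with overlap were *Cntfr* in Hindbrain floor plate, *Jak2* in Optic vesicle and *Lifr* in Cardiopharyngeal progenitors FHF. No test was made on the null libraries between stages.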

How the data were processed

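Single cells of 16 libraries were measured with 10x 3′ v3 chemistry. The authors deposited raw UMI counts per gene and cell, mapped to mm10 with Cell Ranger per the labels' processing notes, with no normalization. Of 41832 deposited cells, 3395 doublets called by the authors and 596 cells of the WT gate carrying tdTomato UMIs were removed. From the tests 8178 genes of kinds the study marks as noisy were left out. Imprinted genes, which the study also leaves out, were kept. Counts were summed per library and deposited cell type (over 15 cells, at least 2 libraries per group), filtered with filterByExpr and scaled by TMM. They were tested with edgeR 4.0.16 (limma 3.58.1, DESeq2 1.42.0, R 4.3.3), Benjamini-Hochberg adjusted over all genes of a fit, and the fits were tested on simulated data. Library names match no single sample label, so each library was put in its group by the stage and sort gate deposited for its cells, with no embryo pool, so that the study's term for the pool could not be fitted and genotypes were compared unpaired. The members and gene lists were chosen with earlier results of these data known. Named were the 10 members with up to 5 highest types per stage and the lowest, called pairs, the 5 pairs with the smallest adjusted p per stage, called genes of the pathway list and the 3 most similar genes. Other pairs named were chosen after their values were seen.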

Additional observations from a re-analysis of the deposited data

Results flagged for a closer look

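In 2 of the 69 groups of 4 libraries examined, 1 library stood apart from the other 3 by Dixon's criterion (critical value 0.829), which chance alone meets in about 1 of 20 groups. *Lifr* over whole libraries was at 10.5 CPM in null library A at E9.5, against 12.2 to 12.6 CPM in the other 3. *Jak1* in WT Epidermis was at 101.7 CPM in library B at E9.5, against 84.0 to 85.8 CPM in the other 3.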

How the results depend on the processing

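No paired analysis was possible because the files tie no library to an embryo pool, so the planned fits with a replicate block were not run. At E7.5, where the study grouped embryos by size, the spread between libraries of a genotype can hold a difference between pools. The sum over 4 erythroid and blood progenitor markers there was 396 and 54.0 CPM in WT libraries A and B. In null libraries A and B it was 373 and 60.6 CPM. At E9.5 the count of members called between genotypes within types was 1 instead of 0 with no filter on low counts. The count called from E7.5 to E8.5, 1, became 2 with limma-voom, with RLE size factors and with no filter, and ranged from 1 to 3 when single libraries were left out. With DESeq2 it was also 1, but of another pair, lower at E8.5. The count from E8.5 to E9.5, 11, became 6 with limma-voom and 7 both with DESeq2 and when 50 cells were asked of each library, and ranged from 4 to 11 when single libraries were left out, with 1 library then assumed to vary like the others. Without the cells whose barcodes E9.5 WT C and D share, an alternative chosen after seeing the data, it was 11. The counts over whole libraries and for the interaction were 0 under every alternative run. Of the single values, 1915 alternatives gave the same call or a value within the spread, 99 moved, 32 lost and 1 gained a call. No called value changed sign, while many values that were not called took both signs over the alternatives. *Stat3* over whole libraries lost its call at E8.5 with the libraries of that stage only (adjusted p = 0.196) and with cell types weighted equally (−1.05, adjusted p = 0.0999), and at E9.5 with equal weights, where the log2 difference was −0.91. Low counts limited *Osmr*, *Il6ra*, *Jak3* and *Il11ra1*, which passed the filter in few types. Thinning cells to 10000 UMIs changed the highest WT type in 10 of 30 combinations of gene and stage. Among them were *Jak3* at E7.5 (Non-neural ectoderm at 2.78 CPM above ExE ectoderm at 2.235 CPM) and *Il11ra1* at E8.5 (Cranial mesoderm). *Cntfr* at E9.5 (Dorsal spinal cord progenitors) and *Tyk2* at E9.5 (Ventral forebrain progenitors) changed too. No combination of *Il6st*, *Lifr*, *Jak1* or *Il6ra* did.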
